A study of Drosophila melanogaster with 4 samples.

Results

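In 668 long stretches of the Drosophila melanogaster chromosome arms, no region enriched in dimethylation of histone H3 at lysine 9 (H3K9me2) was listed. Such a stretch is called a gap here. It is an interval of 30 kb or more between the end of 1 enriched region and the start of the next, with its midpoint outside the centromere-proximal 2 Mb. Arms 2L, 2R, 3L, 3R and the X chromosome were searched. The gaps were chosen by the region positions of the authors' combined list, and were then looked up in the list of each replicate. They are 668 of the 9273 intervals between neighbouring regions on these arms, and 668 of the 8380 with a midpoint outside the proximal windows, which are called distal here. A further 23 intervals of this length lay inside the proximal windows and were left out.

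The material was nuclei from heads of adult flies of the wild-type Oregon-R strain, grown in population cages. Chromatin was fixed with formaldehyde, sonicated and precipitated with an antibody against H3K9me2, and 2 ChIP libraries and 2 input libraries were sequenced. There was a single genotype and no treatment, and the labels give the stage as mixed adults. They name neither the sex nor a separate fly population for each replicate, so the spread between replicates may be technical. Region lists hold no expression values, so the tissue label could not be checked against marker genes. The mark was measured in whole heads, in which fewer cells with the mark and less of it per cell cannot be told apart.

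H3K9me2 is written by methyltransferases such as eggless and G9a, and is bound by heterochromatin protein HP1a, which compacts chromatin around centromeres and on transposons. The arms hold most protein-coding genes, and there the mark is known from scattered places such as transposon insertions. A gap shows that no region passed the authors' threshold, not that the mark was missing from the DNA in between. No genome or annotation of the files' build, FlyBase Release 5, was used here, so sequences and genes of the gaps are not given.

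The gaps covered 36.8 Mb, or 33.7% of the 109.0 Mb of distal sequence. They were 7.97% of the distal intervals and held 44.2% of the distal sequence outside enriched regions. Intervals under 10 kb made up 72.9% of all distal intervals but 22.9% of the interval length, and those of 10 to 30 kb made up 19.1% and 32.8%. The median gap was 45.1 kb long, with quartiles at 35.3 and 63.4 kb. Of the 668 gaps, 267 were at least 50 kb long and 48 at least 100 kb. The gaps just inside the limit were 30014 bp on 3R, 30014 bp on 2R and 30034 bp on 3L. The intervals just outside it were 29996 bp on 3L, 29992 bp on X and 29872 bp on 2L. Lengths ran on across 30 kb without a break, so the limit is a convention and not a boundary in the data.

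**Figure D1:**
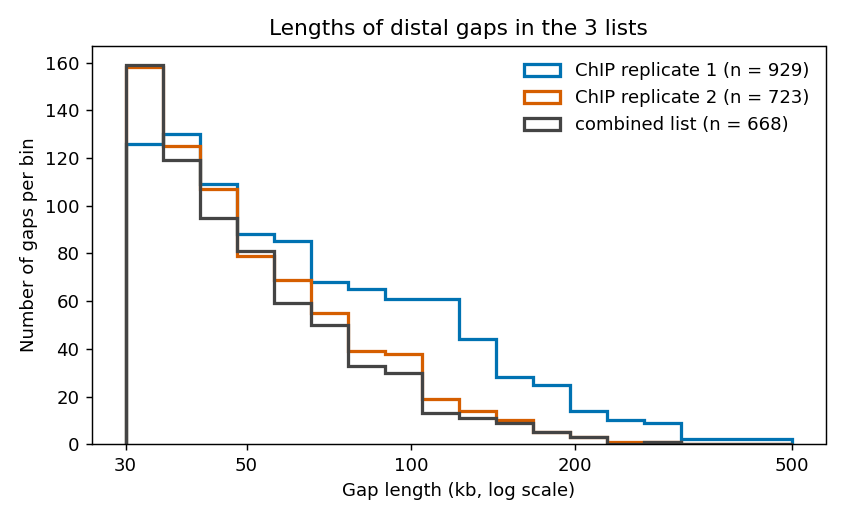
Number of distal gaps (vertical axis) by gap length in kb (horizontal axis, log scale) in the lists of ChIP replicate 1, ChIP replicate 2 and the combined list. Replicate 1 has more gaps of 100 kb or more (211) than replicate 2 (59) or the combined list (48).

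The arms differed in how much of their distal length lay in gaps, and X had the least. In the combined list the share was 43.2% on 3R, 39.3% on 2L, 33.2% on 3L, 27.4% on 2R and 22.4% on X. Enriched regions of this list covered 20.0%, 21.0%, 23.1%, 25.9% and 30.1% of these arms, which is the reverse order. Of the distal sequence outside enriched regions, gaps took up 54.0% on 3R and 32.0% on X. The part of covered length in the order of the arms was not tested. The rule applied to each replicate list on its own gave 70.3% and 45.4% on 3R, 72.1% and 43.3% on 2L, 65.2% and 37.8% on 3L, 59.1% and 31.3% on 2R, and 58.8% and 27.9% on X, each time with replicate 1 before replicate 2. The mean over the replicates was 57.8% ± 17.6 on 3R and 43.4% ± 21.8 on X (SD, n = 2 each), so the difference between these arms was smaller than the spread between replicates. That spread came from a shift in the same direction on all 5 arms, and the arm order could be compared within a list. X was lowest and 2R next in both replicates. Arm 3R was highest in replicate 2, and 2L was highest in replicate 1. X was also lowest in the combined list with its better-scoring 50% of regions (41.4%, against 72.5% on 3R) and with a minimum of 50 kb (12.3%, against 27.8%). Replicate 2 reduced by score to the covered length of replicate 1 had 54.4% in gaps on X and 81.9% on 3R. No test was made, since the gaps were chosen from these lists.

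**Figure D2:**
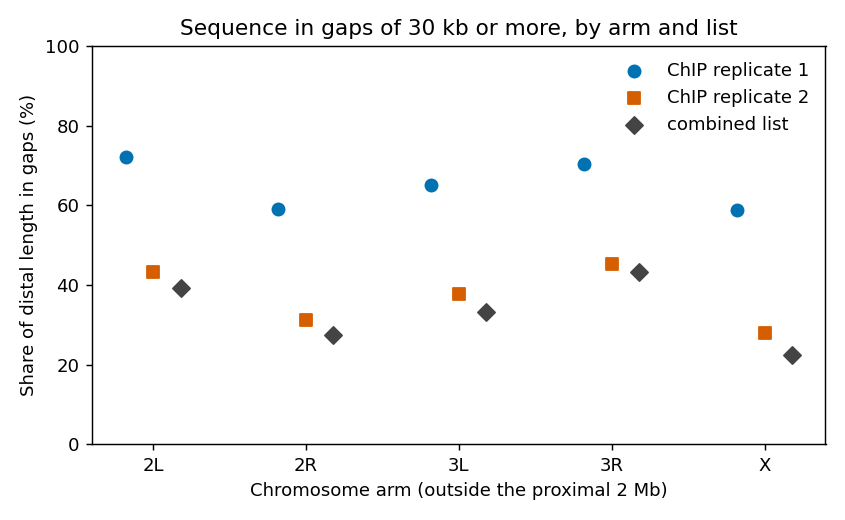
Share of the distal length of each arm that lay in gaps of 30 kb or more (vertical axis, %), with a point for each list. On every arm replicate 1 is highest and the combined list lowest, and X is the lowest arm in each list.

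Gap number and gap length both entered this order. The combined list held 182 gaps on 3R, 156 on 2L, 133 on 3L, 105 on 2R and 92 on X, or 7.03, 7.42, 5.90, 5.48 and 4.50 per Mb of distal sequence. Median lengths differed little, between 40.9 kb on 2R and 46.7 kb on 2L. The longest gaps of the combined list were unevenly spread over the arms. Of the 48 gaps of at least 100 kb, 21 lay on 3R, which holds 23.8% of the distal sequence, and 14 on 3L, which holds 20.7%. The other arms had 6 on 2L, 4 on 2R and 3 on X. Of the 59 such gaps of replicate 2, 22 lay on 3R, 15 on 3L, 10 on 2L, 6 on 2R and 6 on X. The 211 of replicate 1 were spread otherwise, with 59 on 3R, 52 on 2L, 39 on 3L, 31 on 2R and 30 on X. There 2L, with 19.3% of the distal sequence, had more than 3L.

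The longest gap was on 3R at 23816581–24116547 (300.0 kb). Its left border was a region of 1303 bp with a score of 0.17, and its right border a region of 3603 bp with a score of 0.65. The score is the authors' own value for a region and has no stated unit. Both borders were overlapped in replicate 2 and neither was in replicate 1. Replicate 2 had an interval of 299.8 kb at this place. Replicate 1 listed a region of 1860 bp inside the gap, at 23870210–23872069 with a score of 0.34, and to its right an interval that ran on for 438.1 kb to 24310213. In the combined list a single region of 3603 bp parted this gap from the fifth longest, at 24120151–24310083 (189.9 kb). The pair spanned 493.5 kb, of which enriched regions of the combined list covered 0.730%. Replicate 1 covered 0.377% of it and replicate 2 covered 1.05%.

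The second longest gap was on 3L at 10461229–10680337 (219.1 kb), with borders of 2073 bp (score 0.56) and 1417 bp (score 0.36). Replicate 1 had 0 bp enriched in it, and replicate 2 had 274 bp, all at the edges. This gap lay inside the longest interval of replicate 1, 463.8 kb at 10237839–10701595, which held 3 gaps of the combined list. Replicate 2 listed 7 regions there that covered 2.31% of the interval, with a highest score of 1.18.

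The third longest gap was on 3R at 12615803–12829669 (213.9 kb), and 0 bp of it was enriched in either replicate. Its interval was 241.4 kb in replicate 1 and 213.9 kb in replicate 2. Its borders were regions of 1631 bp (score 0.36) and 3085 bp (score 0.72), and the second of these was overlapped in both replicates. The remaining gaps among the 10 longest were on 3R at 22462159–22663185 (201.0 kb), 4892319–5066343 (174.0 kb), 15943481–16115355 (171.9 kb) and 10746657–10912943 (166.3 kb), and on 3L at 13569363–13741687 (172.3 kb) and 17056215–17226099 (169.9 kb). All 10 longest gaps of the combined list lay on chromosome 3. The 10 longest of replicate 2 included 175.5 kb on 2R and 171.4 kb on 2L, and those of replicate 1 included 310.6 kb on 2R. The longest gaps of the other arms were 148.0 kb on X at 8613929–8761947, 146.9 kb on 2L at 18297185–18444079 and 136.7 kb on 2R at 6871725–7008397.

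**Figure D3:**
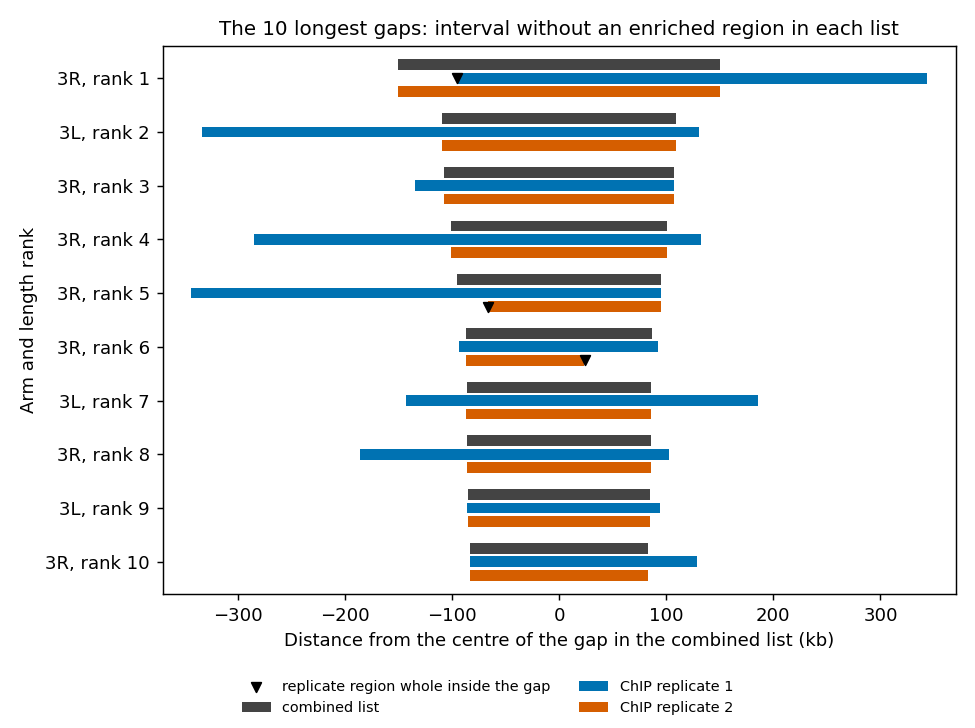
The 10 longest gaps, each as the interval without an enriched region in the combined list, in replicate 1 and in replicate 2 (for a replicate, the interval that shares most bases with the gap), against the distance from the centre of the gap in kb. Triangles mark replicate regions that lie whole inside the gap. The replicate 2 interval is shorter at ranks 5 and 6, where a triangle marks its end, and the replicate 1 interval reaches past a border of the gap in all 10.

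Enriched regions of the replicates covered very little of the gaps. Replicate 1 covered 0.0835% of the gap length and replicate 2 covered 0.437%, averaging 0.260% ± 0.250 (SD, n = 2). Of the distal sequence outside the gaps they covered 17.3% and 33.1%, averaging 25.2% ± 11.1 (SD, n = 2). On single arms the gaps were covered over 0.0348% (2L) to 0.300% (X) in replicate 1 and 0.335% (3R) to 0.501% (X) in replicate 2. In shorter distal intervals replicate 1 and replicate 2 covered 0.0825% and 1.02% at 10 to 30 kb, and 0.452% and 3.03% under 10 kb. These libraries are also behind the combined list that chose the gaps, so the shares describe how the lists relate and are no independent test.

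Replicate 1 had 0 bp enriched in 632 gaps (94.6%), against 93.6% of distal intervals of any length. Replicate 2 had 0 bp in 124 gaps (18.6%), against 28.4% of distal intervals. Both had 0 bp in 104 gaps (15.6%), against 24.4%. The rule used these libraries, so nothing is read from these shares. The part of interval length in them was not tested. Most contacts were slight. Of the 544 gaps touched in replicate 2, 484 were touched only by a region that crossed an edge, and the median contact was 92 bp. Regions lying whole inside a gap numbered 63 in replicate 2, in 60 gaps, and 13 in replicate 1, in 11 gaps. In 599 gaps neither replicate had such a region. Edge contacts and whole regions were not counted in shorter intervals, so these counts are not read as a trait of gaps. The 104 gaps free in both lists were 30 of 156 gaps on 2L and 24 of 182 on 3R. They were 21 of 92 on X, 18 of 133 on 3L and 11 of 105 on 2R. The longest of them were the 213.9-kb gap on 3R and gaps of 134.1 kb on 2R at 8834923–8969001 and 119.5 kb on 3L at 9963967–10083417.

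The regions whole inside gaps scored low with a few exceptions. By the choice of the gaps they are regions absent from the combined list, which rests on the same libraries. Replicate regions inside shorter intervals were not looked at, so the scores are not read as a trait of gaps. The median score of the regions whole inside gaps was 0.70 in replicate 1 and 0.54 in replicate 2, against 0.80 in each list for all distal regions. In replicate 1, 3 of the 13 scored above that distal median, and in replicate 2, 6 of the 63 did. A single pair of these regions touched each other across the replicates, by 209 bp, inside a 30.7-kb gap on 2R at 19165011–19195727, which was covered over 6.62% in replicate 1 and 5.08% in replicate 2. The 3 best-scoring in replicate 1 had 0 bp in replicate 2. A region on X at 15935298–15937451 had a score of 1.497 and lay 28323 bp from the nearest edge of its 71.4-kb gap. Another on X at 98398–102254 had a score of 1.48 and filled 9.30% of its 41.5-kb gap, the largest covered share of any gap. In the first of these gaps, at 15906975–15978345, 7.39% was enriched. A region on 3R at 23692488–23693972 had a score of 1.44. The most covered gap in replicate 2 was on 2L at 6500291–6537449 (37.2 kb), where 8.41% was enriched and a pair of regions inside had scores of 0.49 and 0.60. Next came a pair of gaps on 3L, at 4064341–4103941 with 7.42% and at 6539581–6588437 with 6.53%.

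A further check chose the gaps in the list of 1 ChIP library and measured them in that of the other. Whether the lists share an input library is not given in the sources used here. Gaps chosen in replicate 2 were covered over 0.234% in replicate 1, against 18.3% of the remaining distal sequence. Gaps chosen in replicate 1 were covered over 8.92% in replicate 2, against 46.9% of the remaining sequence. The difference, remaining sequence minus gaps, was 18.1 percentage points as measured in replicate 1 and 38.0 points as measured in replicate 2. Its mean was 28.1 ± 14.1 points (SD, n = 2). Both values set the same pair of lists against each other, so this SD is not a spread over independent replicates. On all 5 arms the remaining sequence was covered more than the gaps, whichever replicate was measured. The sizes depended on how much each list covers. With replicate 2 reduced by score to the covered length of replicate 1, gaps chosen in replicate 2 were covered over 3.05% in replicate 1, against 35.9% of the remaining sequence. Gaps chosen in replicate 1 were then covered over 1.79% in replicate 2, against 30.0% of the remaining sequence. At equal covered length the differences were 32.8 and 28.2 points, so the direction was the same while the order of the replicates turned round. An exact sign-flip test over 2 replicates cannot give p below 0.5, so no p is given. The replicates share the genome sequence, on which reads may map unevenly, and the part of mappability in the result was not tested.

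**Figure D4:**
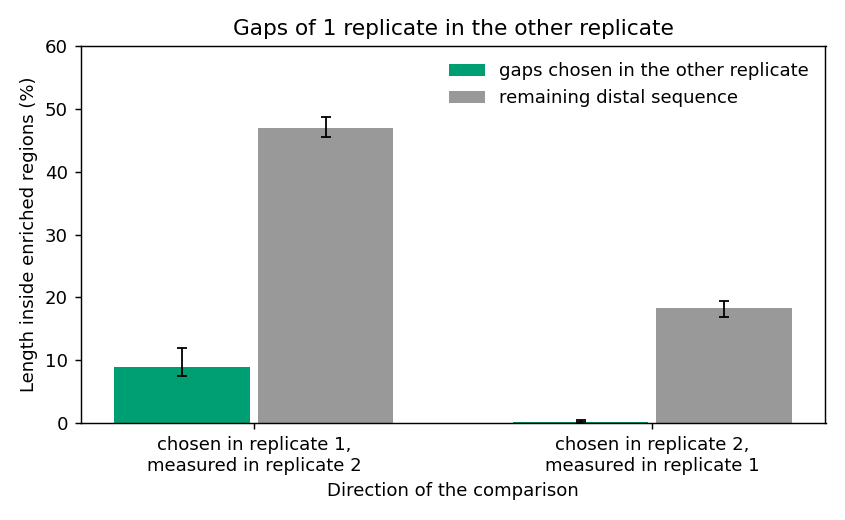
Share of length inside enriched regions (vertical axis, %) in gaps chosen in the other replicate and in the remaining distal sequence, for both directions. Bars show the 5 arms together and whiskers the lowest and highest arm. The gaps stand at 8.92% and 0.234%, and the remaining sequence at 46.9% and 18.3%.

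The rule found 929 gaps in replicate 1, covering 71.5 Mb, and 723 in replicate 2, covering 41.1 Mb. Replicate 1 listed 4106 distal regions and replicate 2 listed 7669, which covered 11.5% and 22.1% of the distal sequence, and a list with fewer regions has wider gaps by construction. The gaps of the replicates shared 40.7 Mb, which was 99.1% of the gap length in replicate 2 but 56.9% in replicate 1. For comparison, gaps of replicate 1 took up 65.5% of all distal sequence and gaps of replicate 2 took up 37.7%. Of the gaps of replicate 2, 622 (86.0%) lay whole inside a gap of replicate 1. Of the gaps of replicate 1, 369 touched no gap of replicate 2, 432 touched 1, 92 touched 2, 29 touched 3 and 7 touched 4 or more. Regions of replicate 2 that lay whole inside gaps of replicate 1 numbered 2658 and had a median score of 0.65, below the 0.80 of all its distal regions. The gaps of replicate 2 were nearly a subset of those of replicate 1, and those of replicate 1 were cut by lower-scoring regions of replicate 2. Read depth is unknown, and its part in this was not tested.

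The gaps of the combined list followed replicate 2 in position. At least 90% of the length lay in a single gap of replicate 2 for 614 of the 668 gaps, and in a single gap of replicate 1 for 657. Gaps of replicate 1 also took up more of the distal sequence, 65.5% against 37.7% for replicate 2. A region of replicate 2 overlapped the bounding region at 1112 of the 1336 gap edges, and its edge was a median of 59 bp away. In replicate 1 this held for 432 edges, with a median distance of 344.5 bp. The closer match to replicate 2 was not particular to gap borders. Of the length of all distal regions of the combined list, replicate 2 covered 89.0% and replicate 1 covered 48.0%. The interval of replicate 1 was longer than the gap for 658 gaps, with a median ratio of 1.92, and that of replicate 2 for 347, with a median ratio of 1.00. Intervals of 30 kb or more that were free in all 3 lists numbered 644. They covered 35.2 Mb, or 32.2% of the distal sequence, and the longest was 244.4 kb on 3R at 23872070–24116426.

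The enriched regions beside gaps were described from the same list that defined the gaps, so no test was made. The 1234 distinct regions that bound a gap were 1975 bp long at the median and scored 0.52, against 2219 bp and 0.57 for the 7150 other distal regions. Few reached 10 kb, 1.94% of the bounding regions and 3.15% of the others. Replicate 1 overlapped 33.1% of the bounding regions and 43.9% of the others, and replicate 2 overlapped 83.6% and 86.9%. Neither replicate overlapped 15.1% of the bounding regions, against 11.8% of the others.

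Among these borders, 102 regions had a gap on each side. They were short, with a median of 1890 bp, and had a median score of 0.53. Through such regions 185 of the 668 gaps (27.7%) stood in 83 runs of 2 or more gaps, and the other 483 stood alone. The runs with most gaps had 4, on 2L at 14784699–15025305 (240.6 kb) and on 3R at 17959531–18196061 (236.5 kb). Replicate 1 had 2.70% enriched over the 2L run and 0% over the 3R run, and replicate 2 had 3.86% and 2.36%. A run of 3 gaps on 3L at 13514947–13834361 spanned 319.4 kb, with 0% enriched in replicate 1 and 1.58% in replicate 2. Of the 14 single gaps or runs that spanned 200 kb or more, 8 lay on 3R, 4 on 3L and 2 on 2L, and 0 on 2R and X. Arms 3R, 3L and 2L hold 23.8%, 20.7% and 19.3% of the distal sequence.

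Very high scores in the combined list, at a few borders and elsewhere, mostly had no overlapping region in the replicate lists. The best-scoring border regions, chosen after their values were seen, were on 3R at 6786308–6788126 and 9143216–9144572, each with a score of 3.96. The first had 0 bp in either replicate list, and the second was covered by replicate 2 alone. The first bounds the gap at 6788127–6952303, of 164.2 kb. In all, 6 distal regions had the score of the best border. Of the 20 best-scoring distal regions of the combined list, 4 lay beside a gap. Neither replicate overlapped 17 of these 20, against 1033 of all 8384 distal regions. The median length of the 20 was 1005 bp, near the shortest in the list, 1001 bp.

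Along the arms the gaps were spread over nearly the whole distal length. Of the 107 full bins of 1 Mb, counted from the proximal window outwards, 0 had no gap sequence, and the median bin had 33.0% of its length in gaps. In 17 bins the share was over 50%, and 8 of these were on 3R, which has 25 of the 107 full bins. The highest shares in the combined list were on 3L, with 73.3% at 4543558–5543557 and 67.8% at 9543558–10543557. On 3R the highest were 66.1% at 24000001–25000000 and 65.3% at 23000001–24000000. The lowest was 1.32% on X at 422828–1422827, where replicate 2 had 4.79% and replicate 1 had 61.1%. The next lowest was 3.00% on 2R at 20000001–21000000, where replicate 2 had 0% and replicate 1 had 53.2%. Across the 107 bins, Pearson's r of the shares in replicate 1 and replicate 2 was 0.83, and between 0.75 on X and 0.86 on 3L within arms. These are descriptions across bins that share the genome sequence and its mappability.

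**Figure D5:**
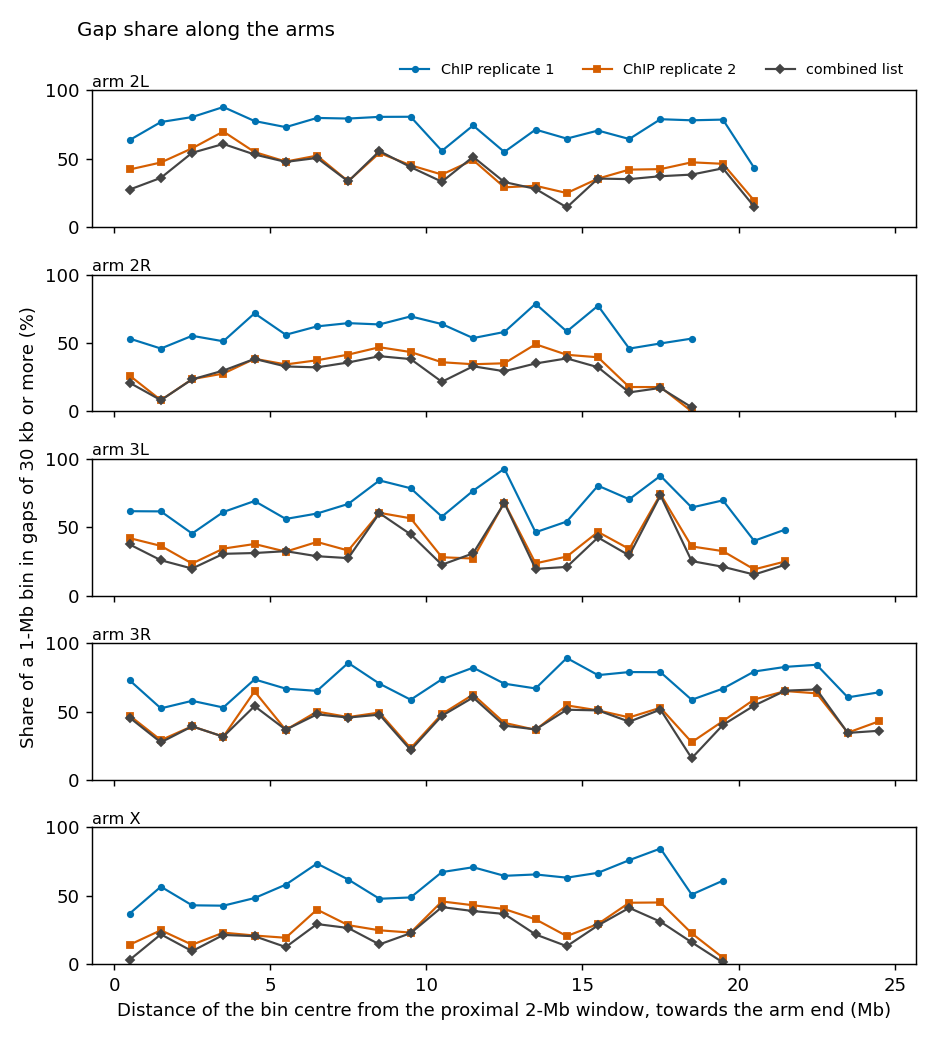
Share of each full 1-Mb bin that lay in gaps (vertical axis, %) against the distance of the bin centre from the proximal window in Mb, for each arm and list. Replicate 2 and the combined list run close together and replicate 1 above them, and the 3L bin with 73.3% in the combined list has 87.6% in replicate 1 and 74.2% in replicate 2.

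The longest distal stretches without a gap of the combined list were near the arm ends of 2R and X. On 2R no gap lay between 19546422 and 20898752 (1352 kb, with 137 regions), and on X none lay between 137902 and 1409668 (1272 kb, with 149 regions). Enriched regions covered 15.6% of the first in replicate 1 and 34.2% in replicate 2, and 16.4% and 36.1% of the second. The corresponding stretches were 670.0 kb on 3L, 607.1 kb on 3R and 594.5 kb on 2L. In 1-Mb bins overlapping the 2R and X stretches, at 20000001–21000000 and 422828–1422827, gaps of replicate 1 took up 53.2% and 61.1%. Gaps of replicate 2 took up 0% and 4.79% there. X had fewer gaps near the centromere too. In 5-Mb bins its gap share in the combined list was 15.3% beside the proximal window, then 21.1%, 30.5% and 23.6% further out. On 3R the corresponding shares were 39.6%, 40.0%, 47.0%, 40.2% and 51.2%. The outermost gap lay 28.3 kb from the arm end on 3L and 217.9 kb from it on 2R.

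Regions that the authors marked as depleted, with scores below 0, were rare. The combined list had 7 on these arms, and 5 of them lay inside gaps. The longest gap held one at 23870244–23872060 on 3R with a score of -0.000736, and the 146.9-kb gap on 2L held one at 18387990–18389406 with a score of -0.00463. The others were in gaps of 39.5 kb on 2L (score -0.00220), 36.1 kb on 3L (score -0.0747) and 43.3 kb on 3R (score -0.105). Each of the 5 overlapped enriched regions of 1 replicate and had 0 bp in those of the other, and this held for all 7 depleted regions, inside gaps or not. Replicate 1 listed 0 depleted regions, and replicate 2 listed 1 in the whole genome.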

How the data were processed

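Enriched regions of H3K9me2 in 2 ChIP libraries were taken from 3 deposited lists, 1 for each library and 1 combined list, which is the authors' own. The positions are on FlyBase Release 5, per the file headers. The submitters' processing notes name Bowtie 0.12.7 as the aligner. How regions were called, set against inputs and merged over replicates is not given in the sources used here. The score of each region is the authors' deposited value with no stated unit or log base, and was used only within a list, for ranking, filtering and description. The other deposited values are start and end positions. The lists carry no read counts, so depth is unknown and counting error cannot be given.

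Gaps were found with Python 3.11.15 and numpy 2.4.6, from enriched regions only. A gap's length is the start of the next region minus the end of the last, and covered shares are over the bases between them. Gap finding and overlap were tested on simulated lists with known gaps. A region touched a gap by at least 1 bp. With a single ChIP group nothing was compared between groups, and values are given per replicate with mean ± SD (n = 2). The members, the named gaps and the alternatives were chosen with earlier results of these data known. Named gaps are the 10 longest, the longest of each arm, the 3 most covered in each replicate and the 3 at each side of 30 kb. The gene table at hand is of Release 6, another build, and was not used.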

Additional observations from a re-analysis of the deposited data

How the results depend on the processing

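Of 69 values recomputed under alternatives, 43 were within 1.5 times of the reported value and 26 were not. The tally includes values fixed by construction. These are the values without regions under 1 kb, and the covered share and free gaps with the union of the 3 lists. Ignoring regions of the combined list under 2 kb, or those in neither replicate list, was chosen after seeing the data. The number of gaps was 1116 at a minimum of 20 kb and 267 at 50 kb. The share of distal length was 19.8% at 50 kb and 53.0% without regions under 2 kb. It was 63.4% with the better-scoring 50% of the combined list. By the gaps of a single replicate list it was 65.5% in replicate 1 and 37.7% in replicate 2. The covered share of the gaps was 0.0357% with the better-scoring 50% of each replicate list and 0.169% with 1 kb trimmed off each end. The same gaps looked up in a single list were covered over 0.0835% in replicate 1 and 0.437% in replicate 2. The share was 4.48% with the better-scoring 50% of the combined list and 2.25% without its regions under 2 kb. By construction it was 0% with the union of the 3 lists. The 104 of 668 gaps free in both replicates became 201 of 1116 at 20 kb and 43 of 267 at 50 kb. They became 32 of 871 with the better-scoring 50% of the combined list and 32 of 840 without its regions under 2 kb. By construction they became all 644 with the union. With 1 kb trimmed off each end 596 of the 668 were free, and with the better-scoring 50% of each replicate list 456. Where free means under 5% covered the count was 655. Looked up in a single list, 632 gaps were free in replicate 1 and 124 in replicate 2. The length shared by the replicates' gaps was 25.3 Mb at 50 kb, 75.05 Mb with the better-scoring 50% of each list and 67.2 Mb with replicate 2 reduced to the covered length of replicate 1. At that equal covered length, the mean covered share of gaps chosen in the other replicate was 2.42%, against 4.58% as reported. Ignoring regions under 1 kb removed 0 regions. Depth is unknown and limits each list, and the exact sign-flip test over 2 replicates cannot go below p = 0.5. No paired analysis was possible because the input libraries have no region list used here.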
